A study of Mus musculus with 22 samples.

Results

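The 7 genes described here make proteins of bone mineral and of the osteocyte, the cell buried in bone matrix. They were taken from the study's 25471 listed genes by name. 4 belong to the SIBLING family, secreted phosphoproteins that bind integrins and mineral: Dmp1 (dentin matrix protein), Mepe (matrix extracellular phosphoglycoprotein), Spp1 (osteopontin) and Ibsp (bone sialoprotein). The other 3 are Phex, a membrane endopeptidase, Fgf23, the hormone by which bone makes the kidney excrete phosphate, and Pdpn (podoplanin, also called E11), a membrane glycoprotein of young osteocytes and of lymphatic vessels. The files hold all 7, and all 7 passed the filter on low counts that left 18793 genes. A further SIBLING gene, Dspp, was not analysed here.

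Total RNA was sequenced from the mid-portion of the ulna, 1 of the forearm bones, for 11 mice that each gave 1 mechanically loaded right ulna and 1 non-loaded left ulna. The 4 groups were loaded ulnae of CKO mice (n = 4), non-loaded ulnae of CKO mice (n = 4), loaded ulnae of wildtype (WT) mice (n = 7) and non-loaded ulnae of WT mice (n = 7), all from the same animals in pairs. CKO mice are those labelled as a conditional knockout of Tlr4, the gene of Toll-like receptor 4, and the series title ties its signals to osteoblasts, the cells that lay down bone. The Cre driver, the alleles, the strain and age of the mice, the loading regime and the time of harvest do not appear in the labels.

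Osteoblasts that become enclosed in matrix turn into osteocytes, which sense strain and signal to the bone surface. In this lineage Ibsp and Spp1 are made by osteoblasts as well as osteocytes, whereas Dmp1, Mepe, Phex and Fgf23 are mainly osteocyte products. Loss of Dmp1 or Phex raises Fgf23 in mice and people and causes rickets with low blood phosphate, so these genes are read as a mineral and phosphate pathway of the osteocyte.

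The libraries held 21999891 to 42833729 counts. Osteocyte RNA was present in every group: Sost, which encodes sclerostin, the inhibitor of Wnt signals that osteocytes secrete, averaged 347 ± 113 CPM (counts scaled to library size, SD) in CKO loaded, 278 ± 24.5 in CKO non-loaded, 331 ± 52.8 in WT loaded and 453 ± 184 in WT non-loaded ulnae. Muscle came along with the bone, and 20 skeletal muscle genes took 2.98% to 16.7% of the counts. Tlr4 itself averaged 29.2 ± 3.16 CPM in loaded and 30.1 ± 3.43 in non-loaded ulnae of CKO mice, against 33.4 ± 4.82 in loaded and 32.5 ± 4.89 in non-loaded ulnae of WT mice, and counts over a whole gene cannot show a deletion of part of it or in 1 cell type. Ltbp2, a gene that otherwise parted the genotypes, went against the label in the library labelled WT loaded 686 (380 CPM) and in the library labelled CKO loaded 688 (38.4 CPM), so the main results that rest on genotype are also given without these 2 mice. Had these loaded libraries been exchanged, the limb pairs of both mice would be wrong as well, which was not tested. The labels were used as given. Counts are relative to the whole library, and in a piece of tissue fewer cells of a type and less RNA per cell cannot be told apart.

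The 4 SIBLING genes lie in a row on the plus strand of chromosome 5 (GRCm38): Dmp1 at chr5:104202613-104214102, Ibsp at chr5:104299171-104311469, Mepe at chr5:104325329-104338611 and Spp1 at chr5:104435118-104441050. The gaps between them measured 85.1 kb, 13.9 kb and 96.5 kb. Phex lies at chrX:157162075-157415312 on the minus strand, Fgf23 at chr6:127072902-127081408 on the plus strand and Pdpn at chr4:143267431-143299564 on the minus strand. Exons of Spp1 overlap those of the gene model Gm42793 on the same strand, so reads there can be counted to either, but Gm42793 averaged only 3.73 CPM.

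The promoters of 3 of the clustered genes are shown because Dmp1 was called for loading in the results that follow and its neighbours were not. Each run gives the 250 bases before the RefSeq start (GRCm38.p6), 5′ to 3′. Capitals mark matches to TGTGGT and TATAAA on either strand. TGTGGT is the core bound by RUNX factors such as the osteoblast regulator Runx2, and TATAAA gives only the letters of a TATA box, wherever they lie. The window of Ibsp is not printed because it runs 116 bases into the gene as GENCODE draws it.
Dmp1, chr5:104202367-104202616, plus strand: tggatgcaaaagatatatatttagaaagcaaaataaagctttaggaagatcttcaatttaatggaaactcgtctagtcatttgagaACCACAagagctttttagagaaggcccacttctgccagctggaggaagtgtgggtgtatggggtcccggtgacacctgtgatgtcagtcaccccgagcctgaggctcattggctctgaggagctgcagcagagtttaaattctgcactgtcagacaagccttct
Mepe, chr5:104325079-104325328, plus strand: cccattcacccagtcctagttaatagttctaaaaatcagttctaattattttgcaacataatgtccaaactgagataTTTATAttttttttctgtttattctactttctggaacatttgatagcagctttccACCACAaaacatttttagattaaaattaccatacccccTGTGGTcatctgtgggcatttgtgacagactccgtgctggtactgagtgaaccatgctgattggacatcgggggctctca
Spp1, chr5:104434861-104435110, plus strand: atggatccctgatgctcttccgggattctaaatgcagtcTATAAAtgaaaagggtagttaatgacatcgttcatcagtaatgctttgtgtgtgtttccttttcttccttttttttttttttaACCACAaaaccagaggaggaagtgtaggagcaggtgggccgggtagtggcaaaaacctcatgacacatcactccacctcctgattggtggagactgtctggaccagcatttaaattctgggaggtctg
Dmp1 held 1 TGTGGT match, 164 to 159 bases before the start, Mepe held 2 and Spp1 held 1, whereas Ibsp, Phex, Fgf23 and Pdpn held 0. Of all 32851 RefSeq promoters of the same length, 14% held this match. TATAAA was found in Mepe, Spp1 and Ibsp and not in Dmp1, against 12.4% of all promoters. It lay 173 to 168 bases before the start in Mepe, 211 to 206 in Spp1 and 28 to 23 in Ibsp. In Mepe and Ibsp it was read on the other strand, as TTTATA. Whether any of these acts as a TATA box was not tested. The letters TGANTCA (AP-1, in 6.75% of all promoters), TGACGTCA (CRE, in 1.55%) and GCGNGGGCG (EGR, in 4.70%), sites of factors that mechanical and hormonal signals switch on, were in 0 of the 7 windows. A match is only a description of the letters.

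Per kilobase of exon, Spp1 was the most abundant of the 7 at 275 ± 91.3 CPM per kb (SD over 22 libraries), above the other 6 genes in 22 of 22 libraries. Mepe (97.8 ± 33.6), Dmp1 (86.4 ± 39.9) and Ibsp (75.1 ± 19.1 CPM per kb) came next and overlapped. Their order depended on the limb: Dmp1 was above Ibsp in 11 of 11 loaded ulnae, made up of 4 of 4 CKO and 7 of 7 WT, but in 0 of 4 CKO and 1 of 7 WT non-loaded ulnae. Phex followed at 12.4 ± 4.86, Pdpn at 4.84 ± 1.84 and Fgf23 at 1.14 ± 0.57 CPM per kb. Fgf23 rested on 12 to 116 counts per library, so its values carry more counting error than those of the other 6.

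Dmp1 was higher in loaded than in non-loaded ulnae and was the only one of the 7 genes to be called for loading. In CKO mice Dmp1 was at 270, 254, 529 and 307 CPM in the loaded ulnae of mice 688, 691, 693 and 698, against 124, 99.6, 139 and 110 CPM in their non-loaded ulnae. The lowest loaded ulna stood above the highest non-loaded one, so the groups did not overlap, which held in this direction for 0.958% of all genes tested. The log2 fold change was 1.53 ± 0.27 (SE), rank 4 by p among 18793 genes, and it narrowly missed the threshold of 0.05 (edgeR adjusted p = 0.0710). In a fit with a block for each mouse, which sets a loaded ulna against the other limb of the same animal, it was 1.47 ± 0.18 and was called (edgeR adjusted p = 0.0181). Called genes were 0.016% of those tested without the block and 0.0266% with it. DESeq2 and limma voom also called Dmp1 in CKO mice (adjusted p = 5.65e-05 and 0.0127), with 0.117% and 0.0213% of genes called. The blocked call was lost without mouse 691, 693 or 698 (edgeR adjusted p = 0.140, 0.194 and 0.199) and without both mice 686 and 688 (0.0774).

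In WT mice Dmp1 had a lowest, median and highest value of 239, 293 and 427 CPM in loaded ulnae, against 123, 179 and 263 CPM in non-loaded ulnae. These ranges overlapped, whereas full separation in this direction was seen in 0.0426% of all genes, because non-loaded ulnae of mice 685 and 687, at 263 and 260 CPM, were above the loaded ulnae of mice 692, 694 and 699. Each mouse was nevertheless higher on its loaded side. The log2 fold change was 0.75 ± 0.20 without the block (edgeR adjusted p = 0.9998, unadjusted p = 0.00137) and 0.78 ± 0.13 with it (edgeR adjusted p = 0.200). Of all genes tested, 0.00532% were called in WT without the block and 0.0106% with it. Without mice 686 and 688 the log2 fold change of Dmp1 was 1.65 in CKO and 0.71 in WT mice.

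**Figure D1:**
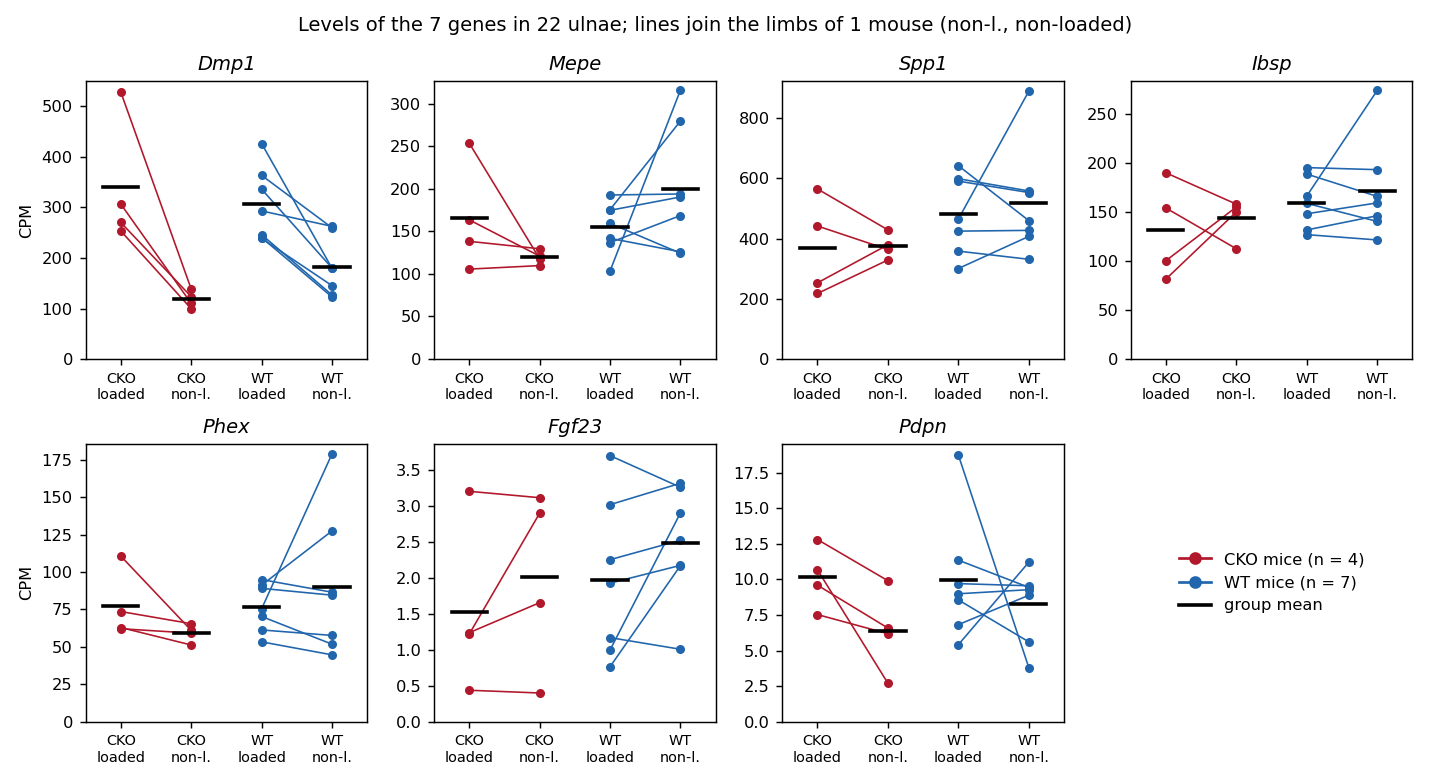
Levels of the 7 genes in CPM (scaled counts), 1 panel per gene, in 4 CKO and 7 WT mice; each line joins the loaded (left) and non-loaded (right) ulna of a mouse and black bars are group means. All 11 Dmp1 lines are higher at the loaded end, with CKO group means of 340 and 118 CPM and WT group means of 306 and 182 CPM.

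Averaged over both genotypes, Dmp1 rose by 1.14 ± 0.17 on the log2 scale and was called (edgeR adjusted p = 0.00340; 0.0905% of genes called), and with the block by 1.12 ± 0.11 (edgeR adjusted p = 0.00126; 0.0585% called). Its rank by p was 7 among all genes tested. The call held in 57 of 57 alternative fits, with adjusted p from 6.04e-08 to 0.0480, the highest of these without mice 686 and 688. Among these fits limma voom called 0.101% of genes.

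Per mouse, the loaded minus non-loaded difference of Dmp1 (log2 CPM) was 1.13, 1.35, 1.93 and 1.48 in CKO mice 688, 691, 693 and 698. In the 7 WT mice its lowest, median and highest values were 0.159, 0.902 and 1.25. The loaded limb thus held more Dmp1 in 11 of 11 mice, by 1.03 ± 0.485 on average (SD; exact two-sided sign-flip test, p = 0.000977, the smallest that 11 mice allow). With mice 686 and 688 left out it held more in 9 of 9, by 1.03 on average (exact two-sided sign-flip test, p = 0.00391). Only 31 genes, or 0.165% of those tested, were higher in every loaded limb; for the 4 CKO mice alone the share was 5.07% and for the 7 WT mice alone 0.628%. The smallest difference belonged to WT mouse 685, whose non-loaded ulna also held the highest Mepe, Spp1, Ibsp and Phex of all 22 libraries.

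The other 6 genes gave no call in any loading comparison under the main fit, at edgeR adjusted p of 0.739 or more, and for 0 of the 6 was the unadjusted p under 0.05, against 3.6% of all genes in CKO mice, 2.34% in WT mice and 3.17% for the mean of both. No other member was called by DESeq2 or limma voom. Mepe was at 106, 164, 254 and 138 CPM in loaded ulnae of CKO mice 688, 691, 693 and 698, against 110, 121, 118 and 130 CPM in their non-loaded ulnae. In WT mice its lowest, median and highest values were 103, 159 and 193 CPM in loaded ulnae, against 124, 190 and 316 CPM in non-loaded ulnae. Both pairs of groups overlapped, and Mepe was higher on the loaded side in 5 of 11 mice. Its log2 fold change was 0.47 ± 0.28 in CKO and -0.37 ± 0.21 in WT mice. The CKO value for Mepe was 0.18 without the loaded ulna of mouse 693. The WT value was -0.15 without mouse 685, and it turned to 0.02 with the mouse as a block and the level of 20 osteoblast and matrix genes as a covariate.

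Phex, whose loss in mice raises Fgf23, was at 62.1, 63.0, 111 and 73.6 CPM in loaded ulnae of CKO mice 688, 691, 693 and 698, against 59.2, 51.3, 61.1 and 65.5 CPM in their non-loaded ulnae. In WT mice the lowest, median and highest values were 53.4, 75.5 and 95.0 CPM in loaded ulnae, against 44.7, 84.6 and 179 CPM in non-loaded ulnae. The ranges overlapped in both genotypes although 9 of 11 mice, with 4 of 4 CKO mice among them, were higher on the loaded side. The mean limb difference was 0.06 ± 0.538 (exact sign-flip p = 0.723), and 0.19 without mouse 685, whose own difference was -1.25.

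Spp1, which osteoblasts, osteocytes and osteoclasts all make, was at 442, 253, 565 and 218 CPM in loaded ulnae of CKO mice 688, 691, 693 and 698, against 364, 380, 429 and 329 CPM in their non-loaded ulnae. In WT mice its lowest, median and highest values were 301, 465 and 642 CPM in loaded ulnae, against 331, 460 and 890 CPM in non-loaded ulnae. The loaded CKO ulnae lay on both sides of all 4 non-loaded ones. The log2 fold change was -0.02 ± 0.31 in CKO and -0.10 ± 0.23 in WT mice.

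Ibsp, a nucleator of mineral made by osteoblasts, likewise split the CKO mice. Its loaded ulnae were at 154, 100, 190 and 81.5 CPM in mice 688, 691, 693 and 698, against 113, 155, 158 and 150 CPM in their non-loaded ulnae. In WT mice the lowest, median and highest values were 127, 159 and 195 CPM in loaded ulnae, against 122, 159 and 274 CPM in non-loaded ulnae. Mice 688 and 693 were higher on the loaded side for both Spp1 and Ibsp, and mice 691 and 698 were lower for both. The log2 fold change of Ibsp was -0.13 ± 0.24 in CKO and -0.11 ± 0.19 in WT mice.

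Fgf23 was at 1.24, 1.22, 3.21 and 0.438 CPM in loaded ulnae of CKO mice 688, 691, 693 and 698, against 1.66, 2.90, 3.12 and 0.400 CPM in their non-loaded ulnae. In WT mice its lowest, median and highest values were 0.765, 1.93 and 3.71 CPM in loaded ulnae, against 1.01, 2.53 and 3.32 CPM in non-loaded ulnae. The groups overlapped, and the limb difference averaged -0.40 ± 0.65 with 4 of 11 mice higher on the loaded side (exact sign-flip p = 0.0771). The log2 fold change was -0.40 ± 0.58 in CKO and -0.32 ± 0.43 in WT mice, with the largest errors of the 7 genes. Leaving out single mice or libraries moved it from -1.08, without the loaded ulna of mouse 693, to -0.07, without mouse 691, in CKO mice. In WT mice it moved from -0.55, without the loaded ulna of mouse 692, to -0.18, without mouse 686.

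**Figure D2:**
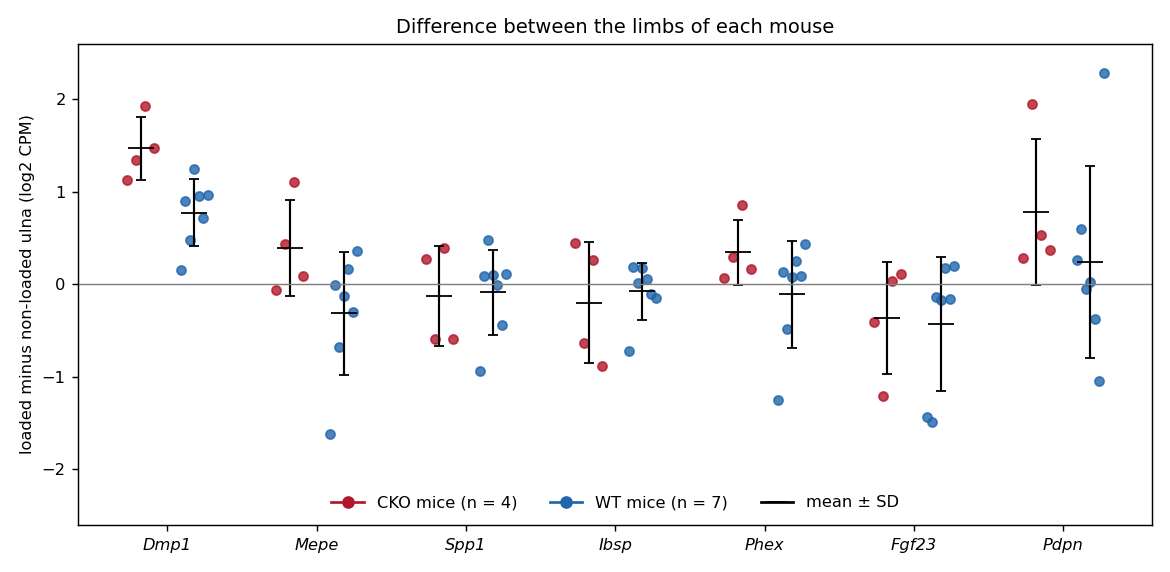
Loaded minus non-loaded ulna (log2 CPM) of each mouse for the 7 genes, CKO (n = 4, left) and WT (n = 7, right); bars are mean ± SD and the grey line is no difference. Every Dmp1 point lies above 0, from 0.159 to 1.93, while each of the other 6 genes has points on both sides of 0 over the 11 mice.

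Pdpn was at 7.53, 10.7, 9.59 and 12.8 CPM in loaded ulnae of CKO mice 688, 691, 693 and 698, against 6.18, 2.70, 6.58 and 9.91 CPM in their non-loaded ulnae. In WT mice its lowest, median and highest values were 5.42, 8.99 and 18.7 CPM in loaded ulnae, against 3.79, 9.28 and 11.2 CPM in non-loaded ulnae. The log2 fold change was 0.68 ± 0.37 in CKO and 0.27 ± 0.28 in WT mice. The groups overlapped, although 8 of 11 mice were higher on the loaded side (mean limb difference 0.44 ± 0.952, exact sign-flip p = 0.177). WT mouse 699 and CKO mouse 691 gave the highest differences, 2.28 and 1.96, and they had the 2 highest limb differences of a list of 10 periosteum and tendon genes as well, 1.18 and 1.39.

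Over the 11 mice the Pdpn difference followed the periosteum and tendon list with a Pearson correlation of 0.938 (Spearman 0.791; 0.795 without the 2 mice farthest from the median), the skeletal muscle list with 0.848 (0.727; 0.769) and the marrow list (erythroid, neutrophil and B lineage genes) with -0.840 (-0.809; -0.685). These are descriptions over pieces of bone that share a library, and the part of soft tissue in the Pdpn values was not tested. All 10 periosteum and tendon genes and all 6 markers of lymphatic vessels, which also express Pdpn, were detected. The lymphatic list took 0.00790% to 0.0130% of counts in CKO loaded, 0.00796% to 0.0187% in CKO non-loaded, 0.00788% to 0.0164% in WT loaded and 0.00694% to 0.0152% in WT non-loaded ulnae.

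Of the 4 clustered genes only Dmp1 was called for loading. Its nearest neighbour Ibsp and the end gene Spp1 had fold changes close to 0 in both genotypes.

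**Figure D3:**
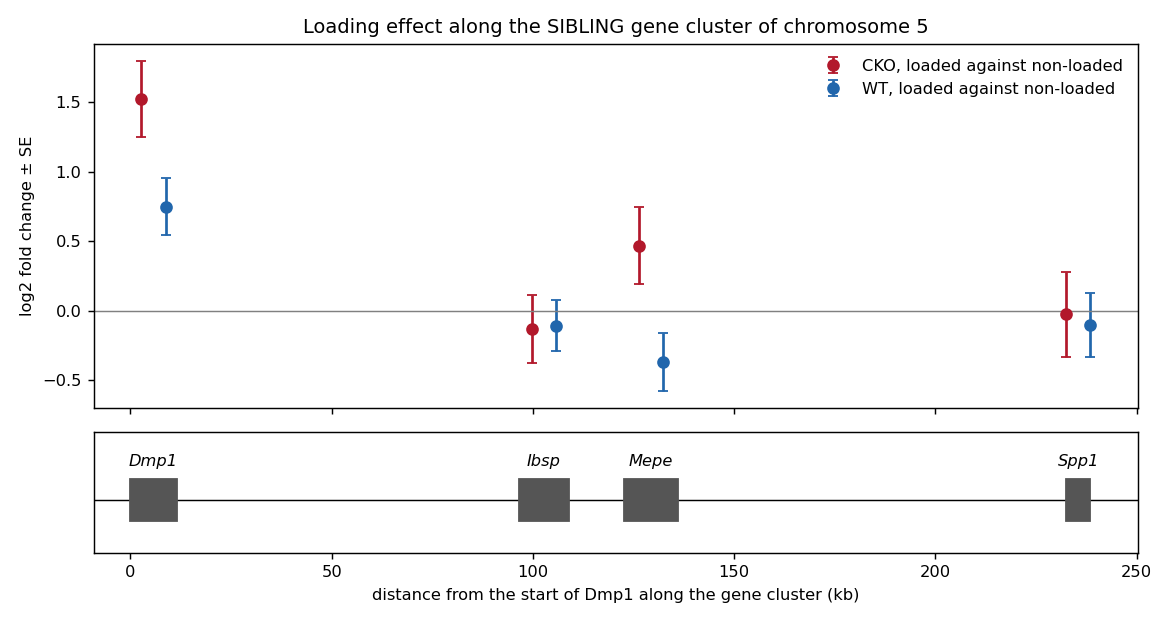
Loading effect (log2 fold change ± SE, loaded against non-loaded, edgeR) of the 4 SIBLING genes in CKO and WT mice, placed by distance in kilobases from the start of Dmp1; boxes below show each gene to scale. Dmp1 stands at 1.53 in CKO and 0.75 in WT mice, while Ibsp and Spp1 lie between -0.13 and -0.02.

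Although their averages differed, Dmp1, Mepe and Phex moved together from mouse to mouse. The limb differences of Mepe and Phex had a Pearson correlation of 0.982 over 11 mice (Spearman 0.955; 0.927 without the 2 mice farthest from the median). Those of Dmp1 and Mepe had 0.895 (0.764; 0.680) and those of Dmp1 and Phex 0.853 (0.664; 0.580). Spp1 and Ibsp formed another pair at 0.856 (0.718; 0.746), whereas Dmp1 had 0.278 with Spp1 (0.109; -0.568) and 0.171 with Ibsp (0.145; -0.487), so the sign of these turned without the 2 mice. For levels over the 22 libraries, where the limbs of a mouse are not independent, Mepe and Phex had 0.849, Spp1 and Ibsp 0.835, and Dmp1 and Mepe 0.471.

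**Figure D4:**
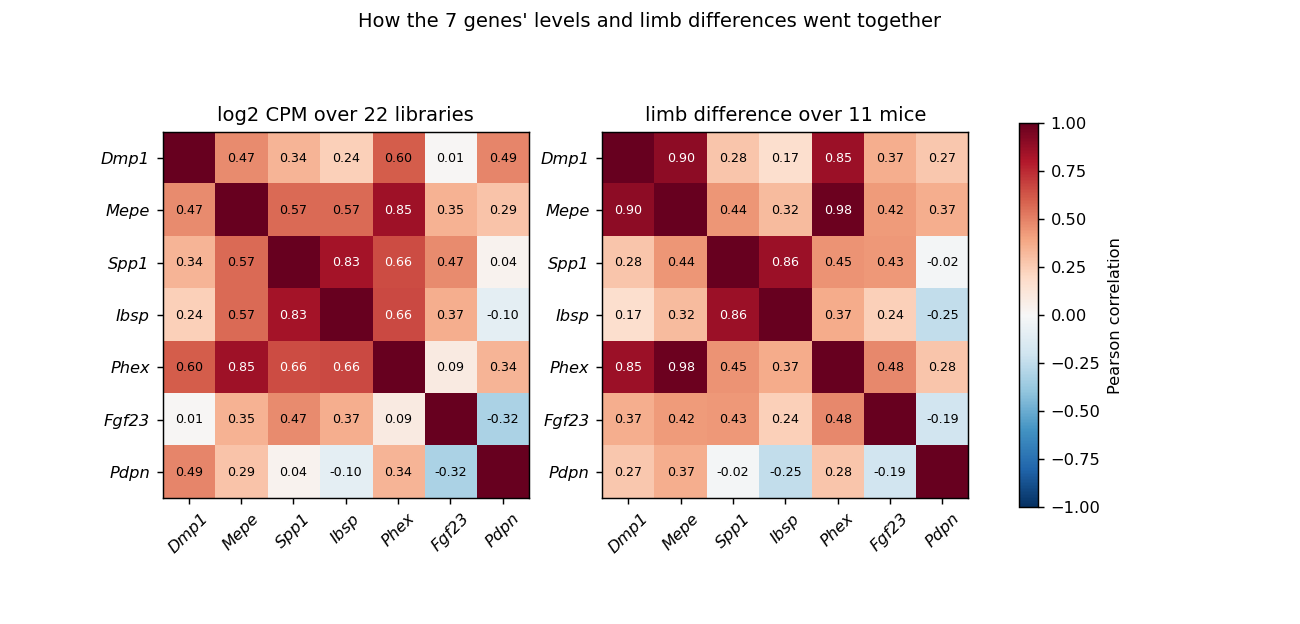
Pearson correlations among the 7 genes, for levels (log2 CPM, 22 libraries, left) and for limb differences (log2 CPM, 11 mice, right); red is positive and blue negative. Mepe and Phex (0.849 for levels, 0.982 for limb differences) and Spp1 and Ibsp (0.835 and 0.856) form pairs, and Dmp1 joins Mepe and Phex for limb differences.

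The limb difference of the ratio of Dmp1 to Mepe varied less between mice (SD 0.332) than that of Dmp1 (0.485) or of Mepe (0.686). That of the ratio of Dmp1 to Phex varied less still (SD 0.282). The ratio to Mepe was chosen after the values were seen, and it does not depend on how libraries are scaled. The CPM of Dmp1 divided by that of Mepe was 2.56, 1.55, 2.08 and 2.22 in loaded ulnae of CKO mice 688, 691, 693 and 698, against 1.13, 0.824, 1.18 and 0.851 in their non-loaded ulnae. In WT mice the lowest, median and highest ratios were 1.51, 1.75 and 2.84 in loaded ulnae, against 0.832, 0.929 and 1.01 in non-loaded ulnae. All 11 loaded ulnae were above all 11 non-loaded ones, a separation that 5 of 18792 genes, or 0.0266%, showed when divided by Mepe. Of the same genes 0.117% had a ratio to Mepe that was higher on the loaded side of every mouse. The separation was not particular to Mepe as the divisor. Dmp1 divided by Phex ran from 3.42 to 4.78 in loaded and from 1.47 to 2.83 in non-loaded ulnae. Divided by Ibsp it ran from 1.61 to 3.76 and from 0.643 to 1.34. Divided by Spp1 the lowest loaded ratio, 0.566, barely passed the highest non-loaded one, 0.565. The share of all genes was not computed for these divisors.

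On the log2 scale the ratio of Dmp1 to Mepe was higher on the loaded side of 11 of 11 mice by 1.09 ± 0.332 (exact two-sided sign-flip test, p = 0.000977). The gain was 1.08 ± 0.255 in CKO (n = 4) and 1.09 ± 0.389 in WT mice (n = 7), and an exact two-sided permutation test of the genotype difference over 330 splits gave p = 0.961. Without mice 686 and 688 the mean was 1.09 over 9 mice, with 1.04 in CKO and 1.12 in WT mice (exact permutation p = 0.786).

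For 2 of the 5 other ratios with Dmp1 the gain differed between the genotypes before adjustment. Dmp1 divided by Spp1 gained 1.60 ± 0.548 in CKO and 0.86 ± 0.403 in WT mice (exact two-sided permutation test, unadjusted p = 0.0273), and divided by Ibsp it gained 1.67 ± 0.719 in CKO and 0.85 ± 0.22 in WT mice (p = 0.0212, same exact test). Without mice 686 and 688 the gains were 1.85 in CKO and 0.87 in WT mice over Spp1, and 1.999 in CKO and 0.88 in WT mice over Ibsp (p = 0.0119 each, same exact test). For Phex, Fgf23 and Pdpn as the divisor the same exact test gave p = 0.179, 0.121 and 0.815, and p = 0.298, 0.0357 and 0.905 without mice 686 and 688. Dmp1 divided by Phex was higher on the loaded side of 11 of 11 mice, with a mean of 0.97 ± 0.282, as it was divided by Ibsp or Fgf23. Divided by Spp1 the order was the same in 11 of 11, but WT mouse 687 showed next to no difference, with ratios of 0.566 in the loaded and 0.565 in the non-loaded ulna. Divided by Pdpn it was higher in 8 of 11. Ratios between the other 6 genes were compared too, with no adjustment for their number. Mepe divided by Phex gained 0.047 in CKO and -0.208 in WT mice (p = 0.0152, same exact test), and the rest had p of 0.0545 or more. Without mice 686 and 688 this p was 0.0119 for Mepe over Phex and over Ibsp, 0.0238 for Mepe over Spp1 and Ibsp over Phex, and 0.0476 for Mepe over Fgf23. Unadjusted genotype differences were thus not particular to Dmp1.

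**Figure D5:**
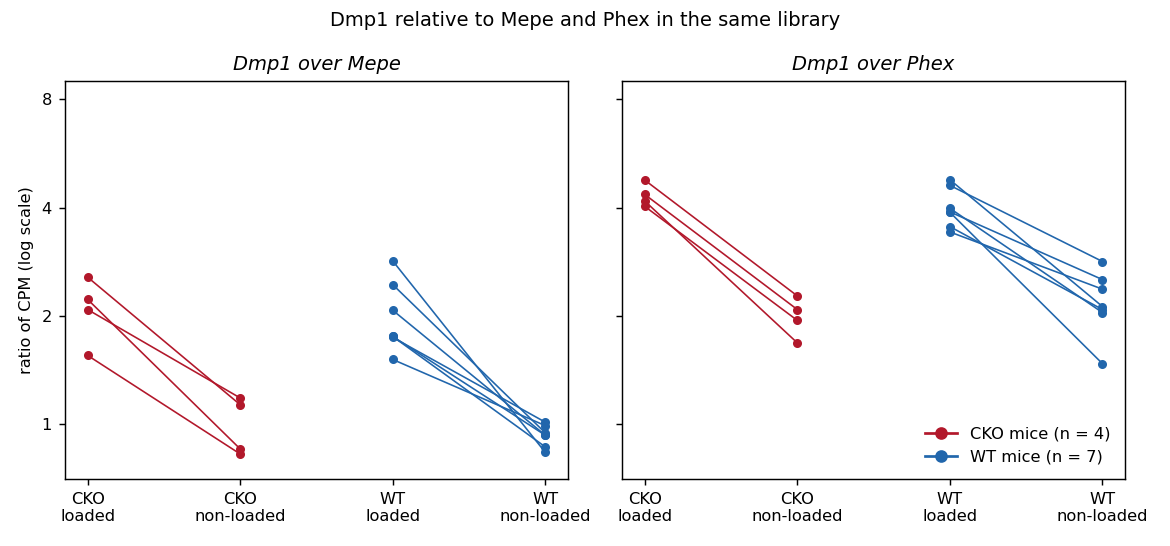
Ratio of Dmp1 to Mepe (left) and to Phex (right) in CPM on a log axis; each line joins the loaded and non-loaded ulna of a mouse, CKO (n = 4) left of WT (n = 7). The Dmp1 to Mepe ratio runs from 1.51 to 2.84 in loaded and from 0.824 to 1.18 in non-loaded ulnae, with no overlap. The Dmp1 to Phex ratio runs from 3.42 to 4.78 and from 1.47 to 2.83, also with no overlap.

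The Dmp1 level itself had a larger limb difference in CKO than in WT mice. The means were 1.47 in CKO and 0.78 in WT mice, and their difference of 0.69 passed an exact two-sided permutation test before adjustment (330 splits, p = 0.0152; 7 genes were compared, and for the other 6 p ran from 0.103 to 0.912). Without mice 686 and 688 the means were 1.59 in CKO and 0.76 in WT mice (exact two-sided permutation test, 84 splits, p = 0.0238). In the edgeR fit over all genes this difference was 0.78 ± 0.34 for Dmp1 and 0.84 ± 0.35 for Mepe, and neither was called (edgeR adjusted p = 0.697 for both). No gene of the 18793 was called, 0% of those tested, by edgeR, DESeq2 or limma voom, while 2 of the 7, Dmp1 and Mepe, had an unadjusted p under 0.05, against 2.6% of all genes. With a block for each mouse this difference was 0.69 ± 0.22 for Dmp1 and 0.70 ± 0.35 for Mepe. Neither was called (edgeR adjusted p = 0.601 for both). In that blocked fit Mepe no longer had an unadjusted p under 0.05. Dmp1 was then the only 1 of the 7 that did, against 748 of 18793 genes. Without the block the difference was 0.94 for Dmp1 and 1.04 for Mepe when mice 686 and 688 were left out. Without the loaded ulna of CKO mouse 693 it was 0.48 for Dmp1 and 0.55 for Mepe, and then 0 of the 7 had an unadjusted p under 0.05, as was also the case without mouse 685.

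In non-loaded ulnae all 7 genes had lower mean levels in CKO than in WT mice, and none was called. Dmp1 was at 118 ± 16.9 CPM in CKO (n = 4), against 182 ± 58.4 CPM in WT mice (n = 7), a log2 fold change of -0.63 ± 0.24. Mepe was at 120 ± 8.17 CPM in CKO, against 200 ± 73.1 CPM in WT mice, a log2 fold change of -0.74 ± 0.25. The 7 log2 fold changes had a median of -0.47, against -0.003 for all genes tested, and the groups overlapped for each gene, where 0.0639% of all genes were entirely higher and 0.122% entirely lower in CKO than in WT mice. The edgeR adjusted p was 0.976 or more, with 0% of genes called. Dmp1 and Mepe, 2 of the 7, had an unadjusted p under 0.05, against 3.04% of all genes. DESeq2 called 0 of the 7 and 0.0106% of all genes, and limma voom 0 of the 7 and 0% of all genes.

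Other bone genes lay lower in the same comparison. Of 16 further osteocyte genes, 3 had a positive log2 fold change (median -0.40), and of 20 osteoblast and matrix genes 1 did (median -0.55). None of these was called either. The osteoblast list took 0.477% to 1.36% of counts in CKO non-loaded ulnae, against 0.530% to 3.72% in WT non-loaded ulnae, and its part in the genotype difference of the 7 genes was not tested. With the level of the osteoblast list as a covariate, an alternative chosen after the data were seen, the Dmp1 value was -0.34. With mice 686 and 688 left out and no covariate, the genotype fold change was -0.66 for Dmp1 and -0.71 for Mepe.

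In loaded ulnae too no member was called between the genotypes, and the fold changes lay on both sides of 0. Dmp1 averaged 340 ± 128 CPM in CKO (n = 4), against 306 ± 72.2 CPM in WT mice (n = 7), a log2 fold change of 0.15 ± 0.24. Mepe averaged 165 ± 63.6 CPM in CKO, against 155 ± 30.1 CPM in WT mice, a log2 fold change of 0.09 ± 0.24. The log2 fold change was -0.39 ± 0.28 for Spp1, -0.28 ± 0.22 for Ibsp and -0.37 ± 0.52 for Fgf23, against -0.47, -0.25 and -0.29 for the same genes in non-loaded ulnae, and 0.02 ± 0.29 for Phex and 0.03 ± 0.33 for Pdpn. The ranges overlapped for all 7 genes, where 0.724% of all genes were entirely higher and 0.511% entirely lower in CKO mice. The unadjusted p was under 0.05 for 0 of the 7, against 6.81% of all genes, and edgeR, DESeq2 and limma voom called 0 of them (0% of genes called by each). Without mice 686 and 688 the values were 0.28 for Dmp1 and 0.33 for Mepe, and without mouse 693 they were -0.14 and -0.19. Without mouse 693 the unadjusted p was under 0.05 for 2 of the 7, against 999 of 18947 genes tested. Leaving out only its loaded ulna also gave 2 of the 7, against 1113 of 19045 genes. No member was called in either fit.

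Genes whose levels went most closely with each member over the 22 libraries were looked up among 15331 tested genes that averaged at least 1 CPM. For Dmp1 these were Egr3 (Pearson correlation 0.929), an immediate-early transcription factor, Bmp2 (0.918), a bone morphogenetic ligand, and Hivep3 (0.916), a zinc finger protein. For limb differences over the 11 mice they were Rerg (0.972), Prr15 (0.968) and Dlx3 (0.947), the last a homeobox factor of bone and teeth. For Mepe they were Sost (0.961), Sema5a (0.900) and Ccdc194 (0.891), and for Phex they were Srgap1 (0.942), Ccn4 (0.939) and Magi2 (0.928).

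Spp1 went most closely with Srgap3 (0.891), Megf10 (0.883) and Vdr (0.866), the vitamin D receptor gene, and Ibsp with Podnl1 (0.890), Lepr (0.886) and Itga9 (0.875). The closest genes of Fgf23 were weaker, Klf11 (0.788), Ddit4 (0.787) and E230001N04Rik (0.782). Pdpn went with the basement membrane collagens Col4a2 and Col4a1 (0.918 each) and with F3 (0.900), the gene of tissue factor. As lists, 16 osteocyte genes followed Phex (0.912), Mepe (0.763) and Dmp1 (0.745), and 20 immediate-early genes had 0.784 with Dmp1, 0.130 with Mepe and 0.146 with Phex. For limb differences over the 11 mice the immediate-early list had 0.696 with Dmp1 (Spearman 0.809), 0.621 with Mepe (0.791) and 0.512 with Phex (0.727). All these values also reflect shared depth and tissue makeup. The levels span both limbs, so loading differences that genes share enter them as well. Egr3, Bmp2 and Hivep3 had loading log2 fold changes of 1.13, 0.82 and 0.77 in CKO and 0.42, 0.45 and 0.38 in WT mice. The osteocyte list includes Wnt1, which was itself called for loading.

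Wnt1, the gene of a secreted ligand that stimulates osteoblasts, was the only gene of the 6 neighbouring lists to be called for loading. It averaged 7.73 ± 4.04 CPM in loaded and 0.887 ± 0.185 CPM in non-loaded ulnae of CKO mice (log2 fold change 3.13 ± 0.47, edgeR adjusted p = 0.0118), and 6.21 ± 1.79 CPM in loaded and 1.23 ± 0.797 CPM in non-loaded ulnae of WT mice (2.33 ± 0.34, edgeR adjusted p = 0.0169). It was higher on the loaded side of 11 of 11 mice, as Dmp1 was. The remaining osteocyte genes gave no call, and the 16 had a median fold change of 0.18 in CKO and -0.04 in WT mice, against -0.01 for all genes in each.

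Of 14 tested genes of the phosphate and Fgf23 axis, 0 were called for loading. Fam20c, the kinase that phosphorylates SIBLING proteins and Fgf23, had the smallest p among them for the mean of both genotypes. It averaged 58.1 ± 17.4 CPM in loaded and 37.4 ± 8.81 CPM in non-loaded ulnae of CKO mice, and 60.5 ± 12.9 CPM in loaded and 51.1 ± 14.1 CPM in non-loaded ulnae of WT mice. It was higher on the loaded side of 10 of 11 mice (log2 fold change 0.44 ± 0.16, edgeR adjusted p = 0.999). Pth1r, the parathyroid hormone receptor, had -0.26 ± 0.18.

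Of 14 tested genes of mineral formation 0 were called either, including Mgp, an inhibitor of calcification (0.29 ± 0.14), and Ank, a pyrophosphate transporter (0.25 ± 0.15). Among 14 receptors, proteases and crosslinkers of SIBLING proteins, Itga5, an integrin subunit, had 0.43 ± 0.11 and was higher on the loaded side of 10 of 11 mice (edgeR adjusted p = 0.307), and Tgm2, a transglutaminase, had 0.31 ± 0.09 (edgeR adjusted p = 0.636). The 7 partners of podoplanin gave no call, among them Cd44 (0.23 ± 0.13) and Ezr (-0.14 ± 0.17), which ties podoplanin to actin. None of the 20 osteoblast and matrix genes was called. In WT mice 0 of the 20 had a loading fold change above 0, with a median of -0.37, and Bmp3, the one with the smallest p for the mean of both genotypes, averaged 64.0 ± 13.7 CPM in WT loaded and 91.4 ± 34.1 CPM in WT non-loaded ulnae. Set against the osteoblast list in the same limb, Dmp1 was higher on the loaded side of 11 of 11 mice by 1.19 ± 0.344 (exact sign-flip p = 0.000977). By this measure Pdpn was higher in 9 of 11 mice by 0.60 ± 0.801 (exact sign-flip p = 0.0195, unadjusted). The rest of the 7 genes had exact sign-flip p of 0.111 or more.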

How the data were processed

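Per the labels' protocols, RNA came from pulverised bone (RNAlater, then Trizol), and 4 ng entered a stranded total RNA library kit. Per the submitters' processing notes the authors used STAR, RSEM and GRCm38, with versions not given in the sources used here. As deposited, the values are expected counts (estimated counts per gene, whole numbers); rounding changed 0 values. Of 25471 genes 25428 were matched to symbols by Ensembl identifier. Coordinates come from GENCODE M21, and promoters from RefSeq, which held all 7 genes.

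Fits used edgeR 4.0.16 under R 4.3.3, with TMM scaling, filterByExpr (18793 genes kept), and glmQLFit (robust) with a mean per group over 22 libraries (18 residual degrees of freedom). Benjamini-Hochberg adjustment covered all genes tested, and genes were called under 0.05; the SE is the log2 fold change over the root of F. CPM are scaled by TMM, and log2 CPM used a prior count of 2. Limbs with the same number are from 1 animal, so the numbers pair them: their deviations from group means correlated at -0.256 to 0.415 (median 0.189, over 0.1 in 7 of 11), and blocked fits had 9 residual degrees of freedom. Mice are separate animals, but the main fit took both limbs of a mouse as independent. Its p-values thus measure the spread between libraries within groups. Blocked fits, sign-flip tests and permutation tests rest on limb differences and measure their spread between mice. Alternatives were the mouse block, other scalings and filters, DESeq2 1.42.0, limma 3.58.1 (voom, mouse as a random effect), tissue covariates, and leaving out mice or libraries. Simulated data had 50 of 18793 genes changed at each of 1.5-, 2-, 3- and 4-fold, with no effect of the mouse. At 2-fold the fit recovered 68% for loading in CKO and 88% for loading in WT, and at 1.5-fold 16% and 28%. The simulated sets gave 144 calls for CKO and 163 for WT, against 3 and 1 in the data. With so few calls the adjusted threshold is stricter, so these shares may be too high for the data. Other genes were named if called, or otherwise as the 2 of each list with the smallest p for the mean loading effect and at least 1 CPM, and, for likeness, as the 3 highest correlations. The members, lists and tests were chosen with earlier results of these data known. Some genes of the lists were not analysed here.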

Additional observations from a re-analysis of the deposited data

Results flagged for a closer look

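Of 42 groups of 4 to 7 values tested for a sample far from the rest, 3 were marked, where chance marks about 1 in 20. Spp1 was at 889 CPM in the non-loaded ulna of WT mouse 685, and the next of the 7 WT non-loaded ulnae was at 558 CPM. Mouse 685 also gave the lowest WT limb difference of Ibsp, -0.72 on the log2 scale, with the next at -0.151. Pdpn had a limb difference of 1.96 in CKO mouse 691, with the next CKO mouse at 0.539; the non-loaded ulna of that mouse held the least muscle RNA of all libraries, 2.98% of counts, and the part of this in the value was not tested.

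The loading difference of Dmp1 was larger in CKO than in WT mice by 0.694 on the log2 scale (exact permutation of mice between genotypes, two-sided, 330 splits, unadjusted p = 0.0152; higher on the loaded side of 4 of 4 CKO and 7 of 7 WT mice). The same difference was not called in the fit over all genes (edgeR adjusted p = 0.697). The gain of the ratio of Dmp1 to Spp1 on loading was larger in CKO than in WT mice by 0.736, and that of Dmp1 to Ibsp by 0.815, on the log2 scale (exact two-sided permutation tests, unadjusted p = 0.0273 and 0.0212; higher on the loaded side of 11 of 11 mice each, by only 0.002 for Spp1 in WT mouse 687). These ratios were computed after the values were seen, together with those of the other pairs of the 7 genes. Among ratios without Dmp1, Mepe to Phex gave an unadjusted p = 0.0152 by the same exact test.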

How the results depend on the processing

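The Dmp1 loading effect averaged over both genotypes kept its direction and its call in 57 of 57 alternatives, with log2 fold changes of 0.99 to 1.25. In CKO mice Dmp1 was called in 17 of 58 alternatives, and in WT mice in 2 of 58; its direction held in all of them. For CKO mice the number of members called was 1, Dmp1, with the replicate block (log2 fold change 1.47), the block with muscle and marrow covariates (1.58), DESeq2 (1.54), limma voom (1.46), the osteoblast list as a covariate (1.47) and that covariate with the block (1.43). For WT mice it was 1 with the block and muscle and marrow covariates (0.92) and with the osteoblast covariate (0.95). Leaving out single mice or libraries, the number called in CKO mice ran from 0 to 1 and the Dmp1 value from 1.23 to 1.66. Without the block Dmp1 was called when mouse 699 was left out (edgeR adjusted p = 0.0460). The same held without only the non-loaded ulna of WT mouse 699 (0.0364) or of WT mouse 685 (0.0479). Each of these fits left out WT libraries only. The block changed no other call of a member. The osteoblast covariates and the blocked fits without single mice were chosen after the data were seen.

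Some values turned sign, and the cause was not tested; all of these were uncalled. With muscle and marrow covariates Spp1 came to 0.01 in CKO mice, 0.01 in WT mice and 0.01 for the mean; with the block added Spp1 was 0.01 and Ibsp 0.02 in CKO mice and Phex 0.10 in WT mice. In WT mice the osteoblast covariate gave Spp1 0.08, Ibsp 0.04 and Phex 0.08, and with the block Mepe 0.02 (-0.37 without either), Spp1 0.12, Ibsp 0.12 and Phex 0.17. Set against the osteoblast list, the limb differences of Mepe, Spp1 and Ibsp were 0.11, 0.06 and 0.04.

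Leaving out single mice or libraries gave these ranges. In CKO mice Mepe ran from 0.16 to 0.63, Fgf23 from -1.08 to -0.07, Spp1 from -0.30 to 0.17 and Ibsp from -0.40 to 0.07. In WT mice Mepe ran from -0.46 to -0.10, Fgf23 from -0.55 to -0.18, Spp1 from -0.21 to 0.09, Ibsp from -0.17 to 0.05, Phex from -0.35 to 0.08 and Pdpn from -0.09 to 0.46. For the mean loading effect Mepe ran from -0.09 to 0.16, Spp1 from -0.20 to 0.04 and Phex from -0.04 to 0.22. Between genotypes, Fgf23 in non-loaded ulnae ran from -0.57 to 0.05, and in loaded ulnae Dmp1 ran from -0.14 to 0.27, Mepe from -0.19 to 0.28, Spp1 from -0.67 to -0.20, Ibsp from -0.51 to -0.10, Fgf23 from -1.05 to -0.06, Phex from -0.21 to 0.12 and Pdpn from -0.10 to 0.27. In loaded ulnae Phex was also -0.00 with limma voom and Pdpn -0.28 with muscle and marrow covariates. The difference in loading effect between genotypes ran from 0.48 to 0.93 for Dmp1 and from 0.46 to 1.0 for Mepe; with the block and the osteoblast covariate it was 0.46 and 0.30. The mean limb difference ran from -0.17 to 0.10 for Mepe and from -0.02 to 0.19 for Phex. The Dmp1 to Mepe limb difference ran from 1.02 to 1.13.

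The number of mice limits what can be shown: 4 CKO mice cannot give an exact sign-flip p below 0.125. Depth limits Fgf23 most, at 12 to 116 counts per library. Fits of genotype with the mouse as a block could not be made, since each mouse has 1 genotype.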
